A study of Mus musculus with 20 samples.

Results

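The genes described here are matrix metalloproteinases, their tissue inhibitors and a plasminogen activator: Mmp2, Mmp3, Mmp9, Mmp14, Timp1, Timp2, Timp3, Timp4 and Plau. They were taken from a list by symbol, and each of the 9 was found in the count matrix of 55401 genes. RNA came from the gastrocnemius, a calf muscle, of 20 C57BL/6 mice aged 24 months. Of these, 10 had received Haenkenium (HK), a standardized extract of the plant Salvia haenkei, at 0.5 mg per kg of body weight and day from 20 months of age for 4 months, and 10 had been left untreated on drinking water. Each arm held 5 males and 5 females, and the mice were sequenced in 2 experiments, called batches in the labels, with 8 mice in batch 1 and 12 in batch 2. All mice were old and of one inbred strain, and young mice were not analysed here.

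Matrix metalloproteinases are zinc enzymes that cut collagens and other proteins of the extracellular matrix. Most leave the cell as inactive precursors, and tissue inhibitors of metalloproteinases (TIMPs) bind the active enzymes. On the cell surface, membrane-bound MMP14 holds TIMP2, which in turn docks the precursor of MMP2 so that another MMP14 molecule can cut it. Plau encodes urokinase, which turns plasminogen into plasmin, a protease that cuts matrix and can activate some of these precursors. In skeletal muscle, the connective tissue between fibres is made largely by fibro-adipogenic cells and fibroblasts.

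The libraries held 13900180 to 30469644 counts, with medians of 16487128 in untreated and 17029215.5 in HK-treated mice. Summed levels of 8 fast fibre genes, among them Ckm and Myh4, reached 128000 to 176000 CPM (counts scaled to library size), so the tissue carried its defining markers. Testing covered 12923 genes that passed a filter on low counts, and 8 of the 9 members were among them. Timp1 was left out by this filter and was tested with a wider one that kept 13626 genes and was chosen after its values had been seen. As the RNA is that of bulk muscle, fewer cells of a type and less RNA per cell cannot be told apart.

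Sequence upstream of the start site is shown for 3 members. Mmp14 varied most closely with another member from mouse to mouse, Timp1 had the widest spread between mice, and Mmp3 is one of the members with the lowest levels. RefSeq promoters (GRCm38.p6) were at hand for Mmp3, Mmp14, Timp1, Timp2, Timp3 and Timp4. Capitals mark matches, on either strand, to any of 4 short motifs. One was GGGCGG, which is bound by the general activator Sp1. Another was AGGAAG, which is bound by factors of the ETS family. The others were TGANTCA, bound by AP-1 (Fos and Jun), and the TATA box. The windows cover the 120 bases before the start, all on the plus strand.
Mmp14, chr14:54431478-54431597: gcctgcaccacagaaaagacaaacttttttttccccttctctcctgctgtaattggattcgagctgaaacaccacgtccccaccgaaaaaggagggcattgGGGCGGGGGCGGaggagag
Timp1, chrX:20870046-20870165: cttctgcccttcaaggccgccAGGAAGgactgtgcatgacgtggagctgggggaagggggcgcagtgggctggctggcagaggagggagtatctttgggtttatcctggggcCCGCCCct
Mmp3, chr9:7445702-7445821: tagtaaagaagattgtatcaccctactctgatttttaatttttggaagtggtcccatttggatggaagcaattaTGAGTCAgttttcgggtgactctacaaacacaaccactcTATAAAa

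With the start base counted as 0, Mmp14 had 2 adjacent GGGCGG matches, at -19 and -13. In Timp1 the same letters lay on the opposite strand at -8, and AGGAAG at -99. In Mmp3 the window held TGANTCA at -46 and the TATA box, searched as TATAAA, at -7. Outside the windows shown, AGGAAG also lay at -183 in Mmp3, at -209 in Mmp14 and at -175 and 40 in Timp1. No GGGCGG lay in the 300 bases of the Mmp3 promoter. Over 32851 RefSeq promoters of 300 bases, 35.66% held the Sp1 motif, 35.35% the ETS motif, 13.62% the TATA box and 7.81% the AP-1 motif. These matches describe letters and show no binding.

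In the annotation (GENCODE, GRCm38), 3 of the 4 TIMP genes lie inside a synapsin gene on the opposite strand. Timp1 (chrX:20870166-20874735) sits within Syn1 with no shared exon base, Timp3 (chr10:86300372-86349506) within Syn3 with 1733 shared exon bases, and Timp4 (chr6:115241892-115252205) within Syn2 with 90. No source used here states whether the counting used strand, so reads from shared bases cannot be assigned. The synapsin genes, which serve nerve terminals, were low: Syn1 reached at most 0.322 CPM in any mouse, Syn3 0.592 and Syn2 1.8. Timp4 also lies inside Gm17482, which had no count, and Timp2 (chr11:118301069-118355740) contains Cep295nl, which reached 0.387 CPM. Mmp2 (chr8:92827291-92853420), Mmp3 (chr9:7445822-7455975), Mmp9 (chr2:164940780-164955850), Mmp14 (chr14:54431612-54445364) and Plau (chr14:20836660-20843385) overlap no other annotated gene.

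Per kilobase of exon, Timp2 had the highest level of the members at 20.8 ± 5.91 CPM per kb (SD, n = 20), above 88.8% of the genes tested. Timp3, which unlike the other TIMPs binds to the matrix itself, followed at 14 ± 3.84, and Plau at 8.91 ± 3.49. Next came Mmp2, which cuts denatured collagen and basement membrane collagen, at 6.79 ± 3.72, and Timp4, an inhibitor known from heart and muscle, at 3.59 ± 1.54. Mmp14 stood at 1.56 ± 0.686 and Timp1 at 1.39 ± 2.01. Mmp3 (stromelysin 1) and Mmp9 (gelatinase B, well known from neutrophils and macrophages) were lowest, at 0.384 ± 0.276 and 0.274 ± 0.166 CPM per kb. Exon length counted every annotated isoform, so genes with long rare exons appear lower on this scale.

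The order held in most mice. Timp2 exceeded Timp3 in 19 of 20 mice, Timp3 exceeded Plau in 19, and Timp4 exceeded Mmp14 in 18, and in these steps the means differed by more than either SD. The means of the other neighbours (Plau and Mmp2, Mmp2 and Timp4, Mmp14 and Timp1, Timp1 and Mmp3, Mmp3 and Mmp9) differed by less than the larger SD. That SD is a spread between mice, whereas both genes of a step were measured in the same mice. Within mice, Plau exceeded Mmp2 in 18 of 20, Mmp2 exceeded Timp4 in 19, Mmp14 exceeded Timp1 in 16 and Timp1 exceeded Mmp3 in 17. Mmp3 was above Mmp9 in only 13 of 20 mice.

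**Figure D1:**
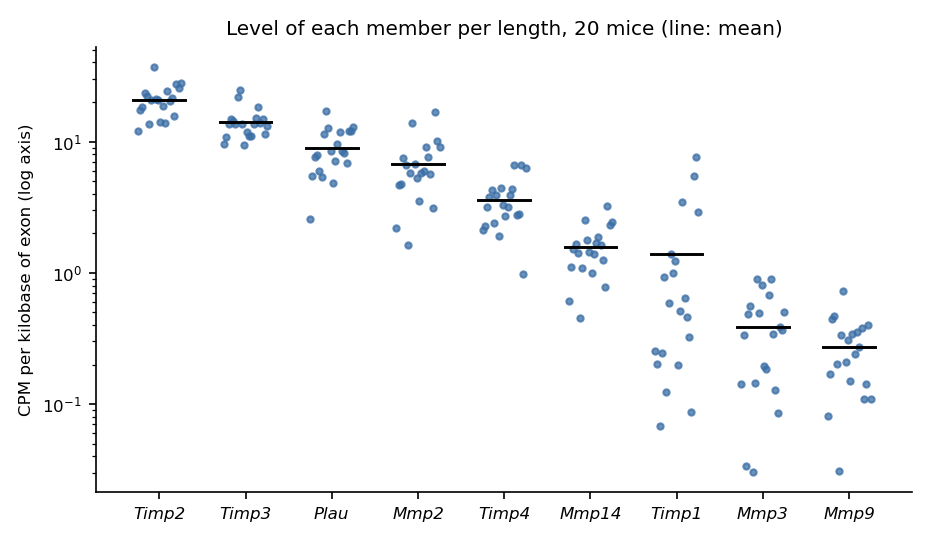
Level of each member in CPM per kilobase of exon (log axis), ordered by the mean over 20 mice. Each point is a mouse and each line the mean; Timp2 (20.8) and Timp3 (14) stand highest, and the points of Timp1 spread over the widest range.

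Summed per length, the 4 TIMPs came to 39.8 ± 9.8 CPM per kb (SD, n = 20) and the 4 MMPs to 9.0 ± 4.61. Timp2 alone made up 42.7% to 60% of the TIMP sum, and Mmp2 made up 67.5% to 81.7% of the sum of these 4 MMPs. Other MMP genes are not in this sum. Of them, Mmp15 had a mean of 26.5 CPM, beside 22.9 CPM for Mmp2, both without scaling to length. The ratio of the TIMP sum to the MMP sum ran from 2.62 to 13.9 over the mice. Every mouse thus held more transcript of the 4 TIMPs than of the 4 listed MMPs on this scale. The ratio had a median of 4.22 in untreated mice (range 2.62 to 7.96) and of 4.83 in HK-treated mice (3.6 to 13.9), and the arms overlapped. By batch, its medians were 6.17 in batch 1 (4.4 to 13.9) and 4.15 in batch 2 (2.62 to 5.22). These are ratios of RNA levels and measure neither protein nor enzyme activity.

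Whether HK changed these genes was asked by comparing treated and untreated mice with batch and sex as covariates in edgeR's quasi-likelihood test. None of the 9 members changed at an adjusted p (Benjamini-Hochberg) under 0.05. The same held for every gene tested: 0 of 12923 were called (0%), with the lowest adjusted p at 0.277, while 762 genes (5.9%) had an unadjusted p under 0.05. By DESeq2 (Wald test) 6 genes passed upward and 1 downward, by limma's voom 0, and no member passed in either tool. Of the 8 members tested, 3 had a higher and 5 a lower fitted level in HK-treated mice. The median of their log2 fold changes was -0.12, beside 0.002 over all genes.

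Among the 4 MMPs of the list, Mmp14 had the lowest p in this comparison. Its level ran from 4.62 to 19.4 CPM in untreated mice (median 9.88) and from 2.68 to 15 CPM in HK-treated mice (median 8.49). The ranges overlapped, and 7 of 10 HK-treated mice had less than the untreated median. The log2 fold change was -0.39 (SE 0.16, 95% CI -0.73 to -0.04), with an unadjusted p of 0.0286 and an adjusted p of 0.819 in edgeR's test. An exact permutation test of treatment within sex and batch, two-sided, gave p = 0.0319. The fitted value was -0.45 in batch 1 alone and -0.32 in batch 2 alone, with adjusted p of 0.997 and 0.788. Lower values at an unadjusted p under 0.05 were found for 3.16% of all genes, beside 1 of the 8 members.

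Mmp2 levels ran from 10.5 to 56.8 CPM in untreated mice (median 22.8) and from 5.52 to 47 CPM in HK-treated mice (median 18.7). The highest value was that of untreated male 3 and the lowest that of HK male 1, and 8 of 10 HK-treated mice were below the untreated median. The log2 fold change was -0.37 (SE 0.24, adjusted p = 0.833), a difference within the spread between mice. Mmp3 and Mmp9 had few reads, 1 to 28 and 2 to 40 counts per mouse, and log2 fold changes of 0.04 (SE 0.35) and 0.14 (SE 0.37). Their 95% intervals were wide, from -0.7 to 0.77 and from -0.64 to 0.92, and changes within them could not be told from 0.

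Timp1, an inhibitor of most MMPs that many cells induce in inflammation and repair, varied more between mice than any other member. In untreated males 1 to 5 it measured 0.290, 0.0769, 4.88, 6.73 and 2.58 CPM, and in untreated females 1 to 5 it measured 0.176, 0.455, 3.10, 0.575 and 0.411 CPM. HK-treated males held 0.109, 0.523, 1.23, 0.887 and 1.09 CPM, and HK-treated females 0.224, 0.181, 0.0607, 0.219 and 0.829 CPM. Only 4 mice exceeded 2 CPM, all untreated and all of batch 2, and the other 6 untreated mice lay within the range of the HK-treated mice. In counts, the 4 mice held 40 to 123 reads and no HK-treated mouse more than 19.

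In the fit with the wider filter, Timp1 had a log2 fold change of -1.52 for HK against untreated (SE 0.47, 95% CI -2.51 to -0.53, unadjusted p = 0.00454, adjusted p = 0.814). The exact permutation test within sex and batch gave a mean difference of -1.03 in log2 CPM with p = 0.0249, where 14400 arrangements allow a p as low as 0.000139. Within batch 2 alone the fitted value was -2.03 (adjusted p = 0.789), and in batch 1 alone Timp1 did not pass the filter. Leaving out each mouse in turn kept the value between -1.71 and -1.29. The treatment effect is not compared between the batches, because Timp1 did not pass the filter in batch 1 alone.

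The other inhibitors differed by less than the spread between mice. Timp2 ran from 53.8 to 109 CPM in untreated mice (median 80.8) and from 46.8 to 143 CPM in HK-treated mice (median 81.5), with a log2 fold change of -0.03 (SE 0.13, 95% CI -0.29 to 0.24). For Timp3 the ranges were 90 to 149 CPM and 76.9 to 203 CPM, with medians of 109 and 111 and a value of 0.11 (SE 0.15, 95% CI -0.2 to 0.43). The intervals of these 2 most abundant inhibitors thus contained 0 and ended within 0.43 of it. Timp4 ran from 5.8 to 39.2 CPM in untreated and from 11.2 to 26 CPM in HK-treated mice, with a value of -0.31 (SE 0.25, adjusted p = 0.851). Both its extremes were untreated mice, male 4 at 5.8 CPM and female 5 at 39.2 CPM.

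Plau ran from 11.5 to 30.2 CPM in untreated mice (median 21.4) and from 6.08 to 40.5 CPM in HK-treated mice (median 18.4). HK female 1 was lowest and HK male 3 highest, so the HK-treated mice enclosed the untreated ones. The log2 fold change was -0.21 (SE 0.17, adjusted p = 0.85). It was -0.54 in females alone and 0.1 in males alone, and the term for this difference between the sexes was 0.62 (SE 0.31, unadjusted p = 0.0588, adjusted p = 1). Over all genes, 0 passed the interaction of treatment with sex in edgeR's test (0%), 403 (3.12%) had an unadjusted p under 0.05, and DESeq2 and limma called 0. The interaction of treatment with batch likewise had 0 genes passing (0%) and 355 (2.75%) at an unadjusted p under 0.05, and DESeq2 and limma called 0 there too.

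**Figure D2:**
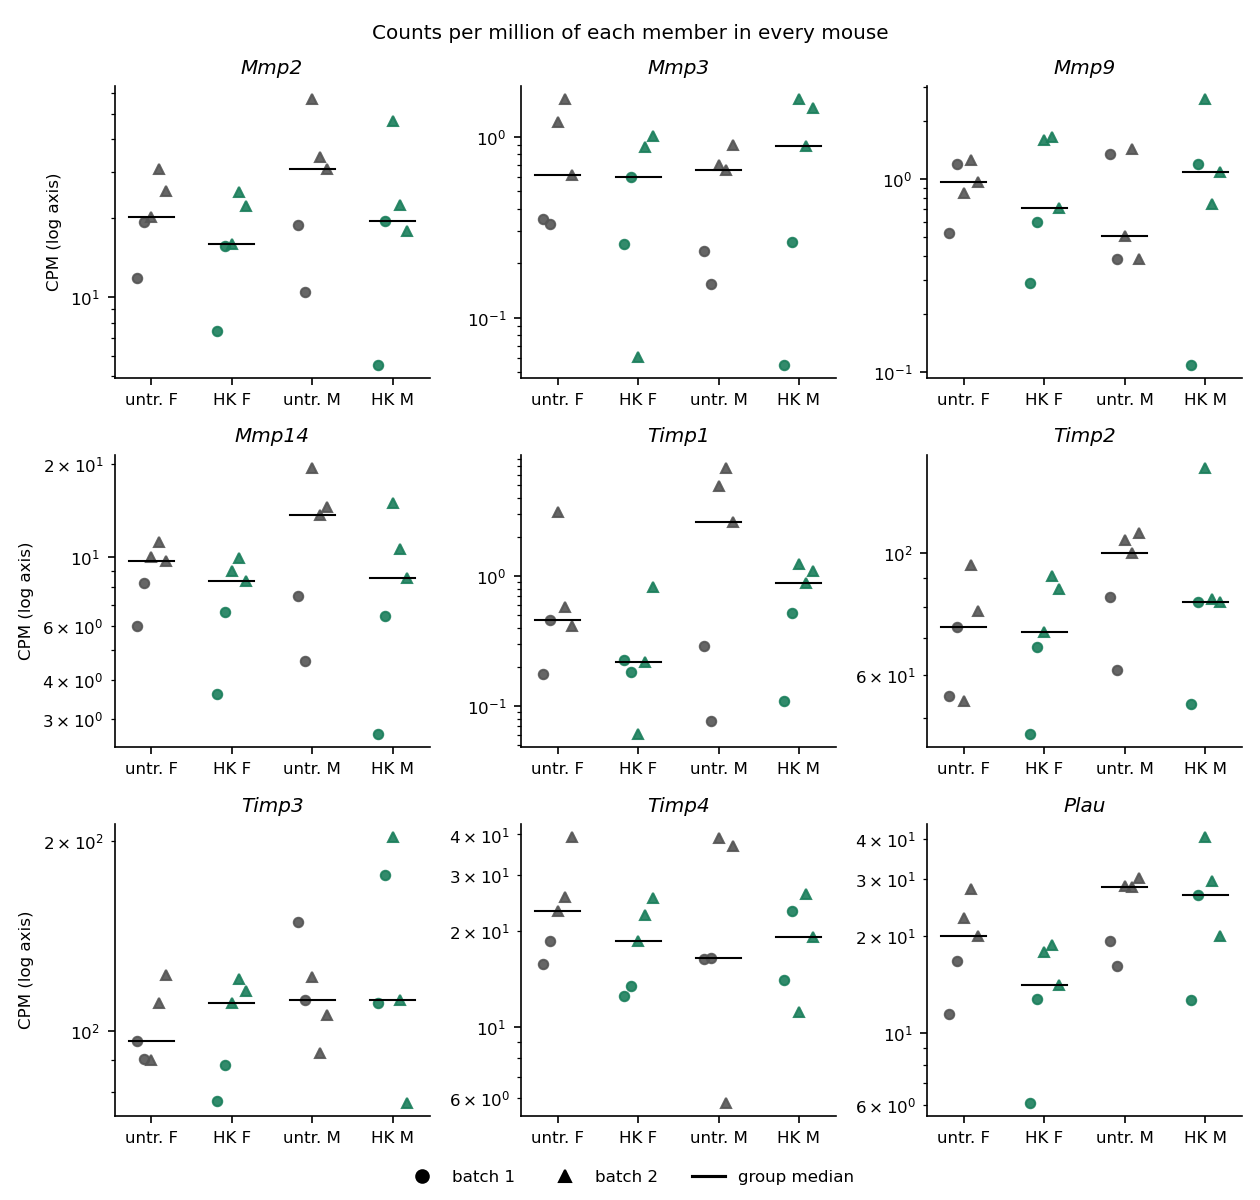
CPM (log axis, own scale per panel) of each member in untreated (grey) and HK-treated (green) females and males, 5 mice per column, with circles for batch 1, triangles for batch 2 and a line at the median. For Timp1, 4 untreated mice of batch 2 stand above 2 CPM, and in most panels the batch 1 mice lie low in their column.

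Of the genes that work with the members, none was called in the comparison of HK with untreated mice. Of 19 other MMP genes only 5 passed the filter (Mmp11, Mmp15, Mmp19, Mmp23 and Mmp28), and the lowest p was that of Mmp11, an MMP of stromal cells, at -0.52 (SE 0.19, unadjusted p = 0.011, adjusted p = 0.819). In the plasminogen system, 8 of 13 genes were tested, and Plaur, the urokinase receptor, had 0.62 (SE 0.39, unadjusted p = 0.125) and -0.03 without HK male 3. Among 14 tested ADAM and ADAMTS proteases, relatives of the MMPs, Adam19 had -0.64 (SE 0.25, unadjusted p = 0.0198). Sparc, a matrix-binding glycoprotein, had the lowest p of 11 other inhibitors and activators, at -0.38 (SE 0.15, unadjusted p = 0.0221). The next lowest p-values of each list belonged to Mmp23 (-0.42) and Mmp28 (-0.33), Plat (-0.29) and Plgrkt (-0.09), Adamts10 (-0.26) and Adam15 (-0.25), and Thbs1 (1.11) and Cstb (-0.2). Without HK male 3, the value of Thbs1 was 0.56. After adjustment in edgeR's test the p-values of the first gene of each list were 0.819 to 0.829.

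The matrix proteins that these enzymes cut had a common sign. All 21 genes of the substrate list had a lower fitted level in HK-treated mice, with values from -1.72 to -0.07 and a median of -0.43, where 51% of all genes were positive. None passed the adjusted threshold, and 2 had an unadjusted p under 0.05: Postn (periostin) at -1.72 (SE 0.59, unadjusted p = 0.00966) and Bgn (biglycan) at -0.68 (SE 0.28, unadjusted p = 0.0246). Tnc (tenascin C) stood at -1.24 (SE 0.59, unadjusted p = 0.0523). In females alone Tnc was 0.28, and in batch 1 alone 0.3. Genes measured in the same mice are not independent, and the count of signs is a description. Fibro-adipogenic and fibroblast markers also had a lower fitted level in 9 of 10 cases (median -0.12, none called), with sums of 479 to 1060 CPM in untreated and 324 to 1320 CPM in HK-treated mice. Other cell type lists had the same sign: 8 of 8 endothelial markers (median -0.25), 8 of 8 smooth muscle and pericyte markers (-0.24), 12 of 13 macrophage markers (-0.28) and 6 of 6 slow fibre markers (-0.72), none of them called. Others had the opposite sign or were mixed: 5 of 5 red blood cell genes were higher (median 0.47), as were 5 of 7 adipocyte (0.12), 4 of 6 tendon (0.03), 4 of 8 fast fibre (0.03) and 2 of 5 satellite cell markers (-0.09), again with none called. Their part in these values was not tested.

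Of the 8 members tested, only Plau was called between the sexes, beside 16.6% of all genes called in either direction. It ran from 6.08 to 28 CPM in females (median 17.3) and from 12.7 to 40.5 CPM in males (median 27.7). The groups overlapped, and 5 of 10 males exceeded every female. The log2 fold change of males against females was 0.62 (SE 0.17, 95% CI 0.27 to 0.98), with an adjusted p of 0.0157 in edgeR's test, and 9.47% of all genes were called higher in males. This call held without each mouse in turn, with values of 0.51 to 0.67. It was 0.72 in batch 1 alone (adjusted p = 0.267) and 0.55 in batch 2 alone (adjusted p = 0.0657), and 0.31 in untreated (adjusted p = 0.188) and 0.94 in HK-treated mice alone (adjusted p = 0.107), so the direction held and the call did not in these smaller sets.

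For 7 of the 8 tested members the fitted level was higher in males or equal to 2 decimals, with a median of 0.26 beside -0.002 over all genes. Timp2 ran from 46.8 to 95.2 CPM in females (median 72.6) and from 53.2 to 143 CPM in males (median 82.8), at a log2 fold change of 0.31 (SE 0.13, unadjusted p = 0.0226, adjusted p = 0.0972). Timp3 had 0.3 (SE 0.15, adjusted p = 0.181), with 0.63 in batch 1 alone (adjusted p = 0.0473) and 0.07 in batch 2 alone. Timp1, which lies on the X chromosome, had medians of 0.318 CPM in females and 0.988 CPM in males and a value of 1.32 (SE 0.47, adjusted p = 0.0606). It passed the wider filter mainly through males, so no sex difference is read from this fit. Mmp2 had 0.37 (adjusted p = 0.317), Mmp14 0.23 (0.373), Mmp9 0.06 (0.928), Mmp3 -0.13 (0.845) and Timp4 0 (0.999).

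Other genes of the system differed between the sexes, with 16.6% of all genes called in either direction. Of the plasminogen system, Serpine2 (protease nexin 1, an inhibitor of urokinase and thrombin) was higher in males at 0.26 (SE 0.05, adjusted p = 0.000526), the only one of 8 called. Serpini1 stood at -0.55 (adjusted p = 0.105) and Plaur at 0.77 (0.191, and 0.17 on the log2 scale without HK male 3). Of the inhibitors and activators, 3 of 11 were higher in males: Spock2 (testican 2) at 1.46 (SE 0.14, adjusted p = 2.67e-07), Cst3 (cystatin C, an inhibitor of cathepsins) at 0.48 (SE 0.06, adjusted p = 5.01e-06) and Sparc at 0.53 (SE 0.15, adjusted p = 0.0231). Of 14 ADAM and ADAMTS genes, 4 were lower in males, with Adamts20 at -0.8, Adam10 (a sheddase of membrane proteins) at -0.24 and Adamts10 at -0.51 having the lowest p, and 1 was higher. In batch 1 alone and in batch 2 alone, Spock2 (1.83 and 1.21) and Cst3 (0.36 and 0.55) were also called. Serpine2 was called in batch 1 only (0.37 and 0.17) and Sparc in batch 2 only (0.16 and 0.75). Adam10 was called in neither batch alone (adjusted p = 0.103 and 0.105 in edgeR's test), and Adamts20 and Adamts10 were not called in batch 2 alone (0.112 and 0.264). In untreated mice alone, Serpine2 (0.154), Adamts20 (0.205), Adam10 (0.246), Adamts10 (0.282) and Sparc (0.0937) were not called, nor were Adam10 (0.099), Adamts10 (0.0882) and Sparc (0.378) in HK-treated mice alone. The difference between batches was not tested.

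Among the other MMPs, Mmp28 was lower in males, as were 7.1% of all genes, at -0.62 (SE 0.19, adjusted p = 0.0277), a call that was lost without untreated male 4 (0.0505), HK male 1 (0.0524) or HK female 4 (0.0509). It was also lost in batch 1 alone (-0.82, adjusted p = 0.095), in batch 2 alone (-0.49, 0.265) and in untreated mice alone (-0.32, 0.556). Mmp23 stood at 0.63 (adjusted p = 0.0698) and Mmp19 at 0.51 (0.234). Col1a2, a chain of type I collagen, was the only substrate gene of 21 called, at 1.03 (adjusted p = 0.0474), and this call was lost without any 1 of 14 of the mice, at adjusted p of up to 0.0915. It was 0.37 in batch 1 alone (adjusted p = 0.646) and 1.42 in batch 2 alone (0.0788), and was called neither in untreated (0.185) nor in HK-treated mice alone (0.444). Postn stood at 1.57 (0.0917) and Lamc1 at 0.24 (0.0941). Markers of other cells also differed: 5 of 7 adipocyte markers and 5 of 6 slow fibre markers were lower in males, and 1 of 10 fibroblast markers (Lox), 1 of 13 macrophage markers (Cd68, 1.51) and 1 of 6 tendon markers (Thbs4, 1.49, adjusted p = 2.7e-05) were higher. Of the fast fibre markers, 2 of 8 were higher and 1 lower, and no endothelial, pericyte, satellite cell or red blood cell gene was called. In sign, 11 of 13 macrophage markers were higher in males (median 0.5), 8 of 8 endothelial and 7 of 8 smooth muscle and pericyte markers were lower, and 4 of 5 satellite cell and 4 of 5 red blood cell genes were higher. Against the sign of Lox, 7 of 10 fibroblast markers were lower in males (median -0.07), while 5 of 6 tendon markers were higher (0.43). The adipocyte markers summed to 161 to 500 CPM in males and 191 to 652 CPM in females, the fibroblast markers to 339 to 1320 and 324 to 1060 CPM, and the tendon markers to 41.9 to 175 and 18.8 to 82.7 CPM. Their part in the members' values was not tested.

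Between the 2 sequencing experiments, 4 members were called higher in batch 2 (Mmp2, Mmp14, Timp2 and Plau), where 18.8% of all genes were called higher and 36.4% in either direction. Mmp3 and Timp1 passed their filters mainly through the mice of batch 2, so their levels are given without a test. Mmp3 ran from 0.0546 to 0.602 CPM in batch 1 (median 0.259) and from 0.0607 to 1.61 CPM in batch 2 (median 0.895). In batch 2, 11 of 12 mice were above every batch 1 mouse. Timp1 ran from 0.0769 to 0.523 CPM in batch 1 (median 0.202) and from 0.0607 to 6.73 CPM in batch 2 (median 0.988), and 9 of 12 batch 2 mice were above every batch 1 mouse.

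Mmp14 was the called member with the lowest adjusted p between the batches. It ran from 2.68 to 8.23 CPM in batch 1 and from 8.41 to 19.4 CPM in batch 2, with a log2 fold change of 1.01 (SE 0.17, adjusted p = 0.000252 in edgeR's test). The share of all genes with such separate ranges was not counted. Mmp2 had 1.06 (SE 0.25, adjusted p = 0.00346), Plau 0.72 (SE 0.17, adjusted p = 0.0038) and Timp2 0.48 (SE 0.13, adjusted p = 0.00766). Timp3 was at 0.06 (SE 0.15, 95% CI -0.26 to 0.38), and Mmp9 at 0.68 and Timp4 at 0.55 were not called (adjusted p = 0.174 and 0.104).

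Matrix and cell markers moved with the batch as well. In batch 2, 19 of 21 substrate genes, 8 of 10 fibroblast markers, 13 of 13 macrophage markers and 5 of 5 red blood cell genes were called higher. Of the others, 4 of 6 tendon, 4 of 7 adipocyte, 3 of 8 fast fibre, 2 of 8 endothelial, 2 of 8 pericyte, 1 of 5 satellite cell and 0 of 6 slow fibre markers were called higher, beside 18.8% of all genes. The sum of the fibroblast markers ran from 324 to 831 CPM in batch 1 and from 615 to 1320 CPM in batch 2, and that of the macrophage markers from 33.7 to 107 and from 97.4 to 413 CPM. Their part in the members' difference was not tested. Each arm and sex had 2 mice in batch 1 and 3 in batch 2, so the batch did not coincide with treatment or sex.

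**Figure D3:**
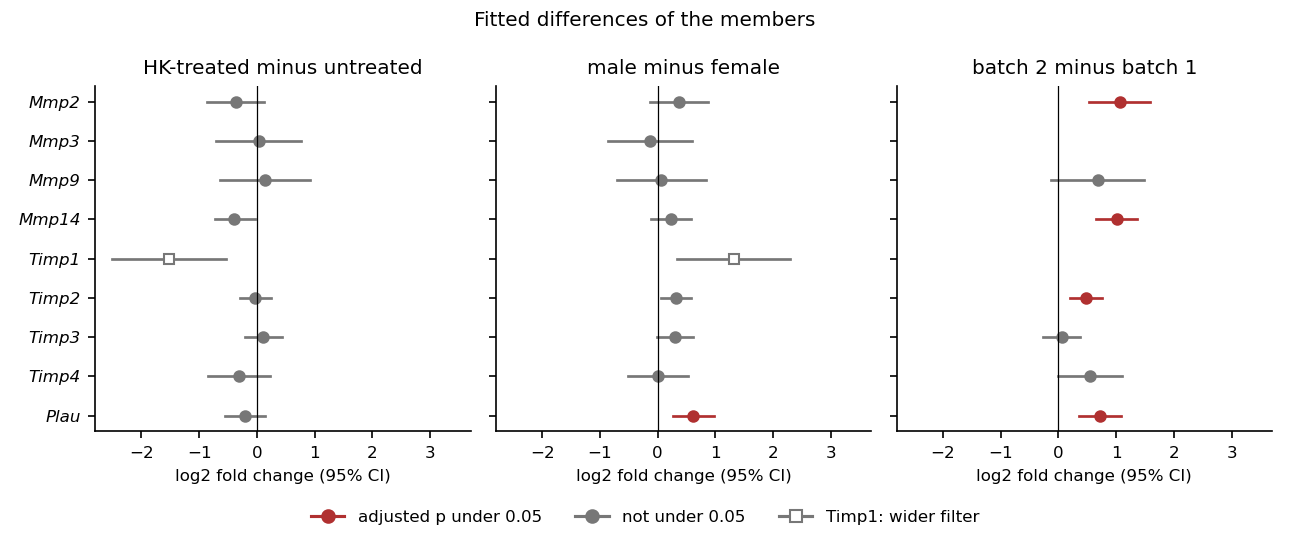
Fitted log2 fold change with 95% confidence interval of each member for HK against untreated, males against females and batch 2 against batch 1, red where the adjusted p was under 0.05; Timp1 (square) comes from the wider filter. No member is red for HK, Plau (0.62) is for sex, and 4 are for batch, where Mmp3 and Timp1 are left out.

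Whether the proteases and inhibitors varied together was asked over the 20 mice, on log2 CPM from which batch, sex and treatment had been removed by a linear fit. Of 28 pairs of the 8 members, 24 had a positive r, with a median of 0.465. By permutation within sex and batch, 10 pairs had an adjusted p under 0.05, and all 10 were positive. The share of other gene pairs that pass in this way was not determined, so these counts only describe the members. The closest was Mmp14 with Mmp2, the enzyme and the precursor that it activates, at r = 0.93 (Spearman's rho 0.87, permutation p = 8e-05, adjusted p = 0.00112). It was 0.98 among the 8 mice of batch 1, 0.87 among the 12 of batch 2 and 0.9 without the 2 mice farthest from the median.

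Timp2, the bridge between the 2 enzymes, varied with both. Mmp2 and Timp2 had r = 0.86 (rho 0.89, permutation p = 2e-05, adjusted p = 0.00056), with 0.96 in batch 1 and 0.81 in batch 2 and 0.81 without the 2 farthest mice. Mmp14 and Timp2 had r = 0.77 (rho 0.78, permutation p = 0.00014, adjusted p = 0.00131), with 0.95 and 0.64 in the batches and 0.73 without the 2 farthest mice. HK male 3 illustrates it: its 47 CPM of Mmp2, 15 CPM of Mmp14 and 143 CPM of Timp2 were each the highest among the HK-treated mice. HK male 1, with 5.52 CPM of Mmp2 and 2.68 CPM of Mmp14, had the lowest values of all mice for both. Its Timp2, at 53.2 CPM, was not the lowest, as HK female 1 had 46.8 CPM. These CPM values are unadjusted, and HK male 3 belongs to batch 2 and HK male 1 to batch 1. With batch, sex and treatment removed, Mmp2, Mmp14 and Timp2 stood at 0.87, 0.52 and 0.55 in HK male 3. In HK male 1 they stood at -1.07, -0.87 and -0.4.

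The remaining pairs were weaker. Timp3 and Plau had r = 0.63 (rho 0.47, permutation p = 0.00213, adjusted p = 0.0149), whereas rho did not pass after adjustment (0.057). Timp2 and Timp3 had r = 0.6 (permutation p = 0.00449, adjusted p = 0.0233), with 0.47 in batch 1 (exact p = 0.189) and 0.67 in batch 2. Mmp9 passed with Plau (0.67) and Timp2 (0.6), but r with Timp2 fell to 0.42 without the 2 farthest mice and was 0.36 in batch 2. Plau also passed with Mmp2 (0.66), Mmp14 (0.62) and Timp2 (0.6), with 0.43, 0.39 and 0.42 in batch 2 alone.

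Timp4 passed with no other member over the 20 mice, its r lying between -0.3 and 0.22. Its r with Timp3 was 0.81 in batch 1 and 0.09 in batch 2, with Plau 0.71 and -0.16, and with Mmp9 0.49 and -0.68. Timp1, added after its values had been seen, passed with none of the 8 either, with r from -0.26 to 0.43 and an r of -0.06 (permutation p = 0.782) for the pair of Timp1 and Mmp9. The 4 TIMPs therefore differed among themselves in which genes they varied with, although only the r values and not their differences were tested.

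**Figure D4:**
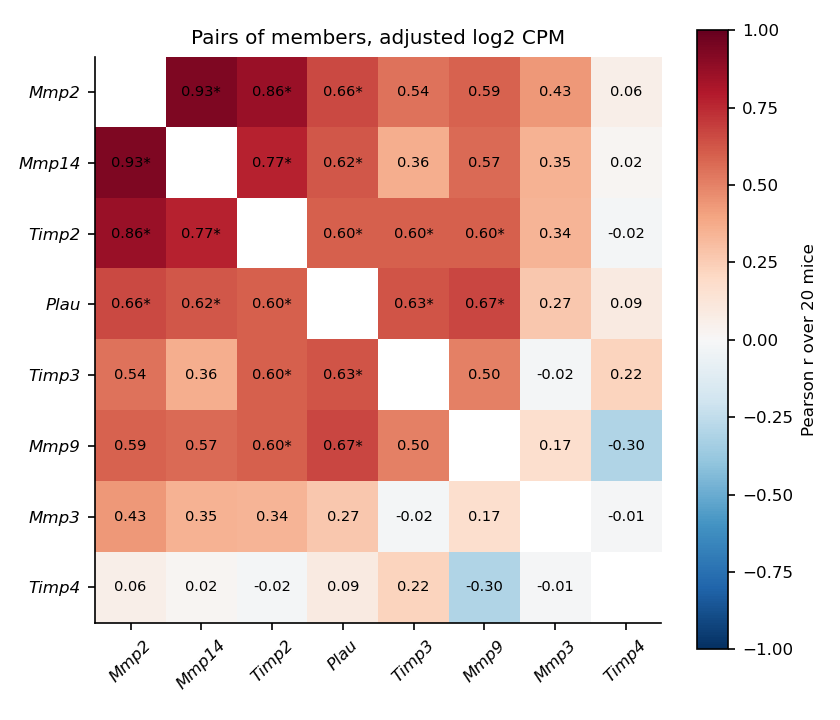
Pearson r of each pair of the 8 tested members over 20 mice, on log2 CPM with batch, sex and treatment removed (blue negative, red positive, star for adjusted p under 0.05). The block of Mmp2, Mmp14 and Timp2 (0.77 to 0.93) stands out, and the values of Timp4 stay between -0.3 and 0.22.

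The members were then set beside the mean level of cell type markers in the same mice, 88 relations in all, of which 18 had an adjusted p under 0.05. How often other genes pass with these lists was not determined. Mmp2 followed the 10 fibro-adipogenic and fibroblast markers, among them Pdgfra, Pi16 and Dpp4, at r = 0.96 (rho 0.95, permutation p = 2e-05, adjusted p = 0.00088), with 0.98 in batch 1 and 0.95 in batch 2. Mmp14 followed them at 0.91 (adjusted p = 0.00147 by permutation), Timp2 at 0.81 (0.00189) and Plau at 0.77 (0.00506), and without the 2 farthest mice these values were 0.87, 0.73 and 0.73. In batch 1 alone they were 0.96, 0.96 and 0.9, and in batch 2 alone 0.82, 0.71 and 0.56. These 3 genes and Mmp2 thus had more transcript in the muscles with more fibroblast marker RNA.

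Mmp2 and Mmp14 also passed with tendon (0.72 and 0.66), macrophage (0.74 and 0.73), endothelial (0.77 and 0.77) and pericyte markers (0.7 and 0.76). Each of these values was lower in batch 2 alone than in batch 1 alone. In batch 2 they were 0.66 and 0.52, 0.57 and 0.54, 0.64 and 0.67, and 0.46 and 0.64. By rank, Mmp2 did not pass with the endothelial or the pericyte markers (adjusted p of rho 0.0556 for each, by permutation). Timp2 reached its highest r with tendon markers, 0.83 (adjusted p = 0.00088 by permutation). It also passed with macrophage (0.62), endothelial (0.63) and adipocyte markers (0.65), with 0.82, 0.84 and 0.83 in batch 1 and 0.47, 0.47 and 0.51 in batch 2. By rank, Timp2 did not pass with the endothelial markers (adjusted p of rho 0.103, by permutation). Timp3 passed with endothelial markers only, at 0.65 (rho 0.65, adjusted p = 0.0123 by permutation, 0.72 and 0.63 in the batches). Mmp9 passed with adipocyte markers only, at 0.67 (rho 0.72, adjusted p = 0.0118 by permutation), with 0.8 in batch 1 and 0.47 in batch 2. None of the 11 neutrophil markers passed the filter, and their sum was 0.241 to 15.4 CPM, so Mmp9 could not be set beside them. Mmp3 and Timp4 passed with no list by r, and Timp1 was not part of these relations. The r of Mmp3 with tendon markers, 0.61, lay at the threshold (adjusted p = 0.05 by permutation). By rank, Mmp3 passed with the adipocyte markers (rho 0.57, adjusted p of rho 0.0438, by permutation).

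**Figure D5:**
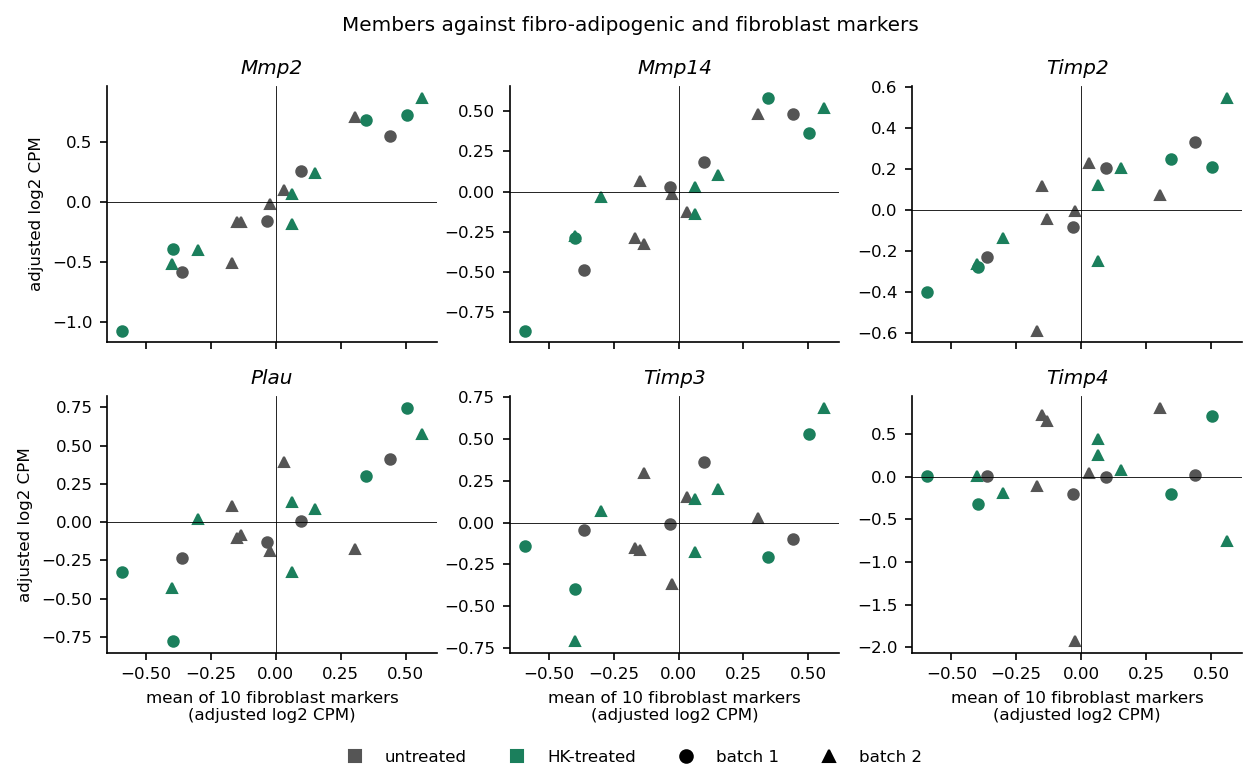
Adjusted log2 CPM of 6 members against the mean adjusted log2 CPM of 10 fibroblast markers in 20 mice (grey untreated, green HK-treated, circles batch 1, triangles batch 2). Points of Mmp2 (r = 0.96) and Mmp14 (0.91) lie close to a line and those of Timp4 scatter.

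The genes most like each member, by Pearson r over the 20 mice among 12923 genes, are given as a description. For Mmp2 they were Fndc1, Pcsk6 and Nid1 (0.96 each), for Mmp14 Tbc1d2b (0.94), Mmp2 and Lhfp (0.93 each), and for Timp2 Antxr2 (0.98), Itih5 (0.95) and Scara5 (0.94). Plau was most like Ccl11, which encodes the chemokine eotaxin (0.91), Tmod2 (0.87) and the collagen receptor Ddr2 (0.86). For Timp3 they were Lvrn, Gdap2 and the Notch ligand Dll4 (0.84 each), and for Timp4 Pkp4, Ift172 (0.81 each) and Cpsf1 (0.79). Mmp9 was most like Abca6 (0.87), Prkd3 (0.85) and Gdf10 (0.84), and Mmp3 like Ahi1 (0.83), Aacs (0.81) and Lman2l (0.8).

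For Timp1, chosen after its values had been seen, they were Rpl3, a ribosomal protein of the large subunit (0.94), Ampd3, an AMP deaminase (0.89), and Ckap4, a membrane protein of the endoplasmic reticulum (0.87). In batch 1 the 3 values were 0.94, 0.86 and 0.9, and in batch 2 they were 0.93, 0.92 and 0.86. Mmp2 was thus among the genes nearest to Mmp14, whereas no other member was among those nearest to a TIMP.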

How the data were processed

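RNA was isolated from the gastrocnemius of 20 mice, depleted of ribosomal RNA and sequenced on a NextSeq 500 in 2 experiments. Reads were aligned by the authors to GRCm38.p6 with STAR 2.6.1c (two-pass mode). The authors deposited raw counts per GENCODE gene and mouse, with no normalization or batch correction. Not given in the sources used here are the counting tool and its strand setting. Treatment, sex, batch and replicate came from the labels, and age from the paper's methods. Depth was 13900180 to 30469644 counts.

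Counts were filtered (filterByExpr, minimum count 10, treatment groups), scaled by TMM and fitted in edgeR 4.0.16 (R 4.3.3) with treatment, sex and batch; p-values are Benjamini-Hochberg adjusted over 12923 genes at 0.05. CPM values use TMM library sizes, and log2 CPM a prior count of 2. Correlations used 100000 two-sided permutations within sex and batch (exact where stated for batch 1). Positions and exon lengths came from an older GENCODE release on GRCm38, which matched 55141 of 55401 identifiers. The fits were tested on simulated data with 200 changed genes. Replicates differed by more than counting noise (chi-square per degree of freedom 8.06 to 49.6 over 16 pairs). Members and lists were chosen with earlier results of these data known. Named genes were all members, the 3 lowest p per list and contrast (for cell type lists counts are given instead, with a few of these genes), overlapping genes, and the 3 most alike genes per member; of pairs, the 5 with the lowest adjusted p and those of Mmp14, Mmp2 and Timp2 and of Mmp9 and Timp1. Other pairs, Mmp15 and Mmp19 were named after their values were seen. The results of 1 marker list are not reported here. Alternatives used DESeq2 1.42.0, limma 3.58.1, other covariates, subsets and each mouse left out.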

Additional observations from a re-analysis of the deposited data

Results flagged for a closer look

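Timp1 in untreated female 3 measured 3.1 CPM, and the next of the 5 untreated females 0.575 CPM. The gap took up 0.864 of the range of the group, above Dixon's 95% critical value of 0.71 for 5 samples. Timp1 in HK female 5 measured 0.829 CPM and the next of the 5 HK-treated females 0.224 CPM, a share of 0.788. Both mice belong to batch 2. Of 36 groups tested (9 members in 4 groups), 2 were singled out this way, and chance singles out about 1 in 20 groups.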

How the results depend on the processing

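The count of genes called for HK against untreated stayed 0 in each direction with DESeq2 size factors, limma voom, no covariates, batch alone as covariate, either batch or sex alone and the wider filter. It was 0 higher and 0 to 1 lower without each mouse, 6 higher and 1 lower by DESeq2, and 247 higher and 255 lower without a filter. That unfiltered fit of 30096 genes, 9676 of them with under 10 counts in all, had 482000 degrees of freedom per gene beside a median of 20.8, so its p-values carry almost no estimate of the spread of single genes. It called Mmp2 (-0.36), Mmp14 (-0.37), Timp4 (-0.3) and Timp1 (-1.51), 1401 genes lower in males, and 314 and 225 genes for the interactions of treatment with sex and batch. The count for males against females was 912 to 1292 higher and 733 to 1045 lower without each mouse, 753 and 530 in batch 1, 456 and 389 in batch 2, 258 and 194 in untreated and 383 and 253 in HK-treated mice alone, sets with fewer mice.

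The replicate block (sex and replicate number) called 0 genes and no member, with Mmp14 at -0.4 and Mmp3 at -0.01. Same-numbered mice had correlations of -0.46 to 0.214, 4 of 10 above 0.1 and 5 of 10 closest to their own number, so the numbers do not pair the mice.

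Signs turned only for values that were not called. For HK against untreated, Mmp3 was -0.31 by voom, -0.15 in the permutation test and -0.48 in females alone. Batch 1 alone gave Mmp9 -0.68, Timp3 -0.02, Thbs1 -0.29, Cstb 0.04 and Tnc 0.3, and batch 2 alone Timp2 0.06. Females alone gave Mmp9 -0.15, Timp3 -0.01, Thbs1 -0.29 and Tnc 0.28, and males alone Plau 0.1. Without each mouse, Mmp3 ran from -0.11 to 0.26, Mmp9 from -0.05 to 0.3, Timp2 from -0.11 to 0.03 and Plaur from -0.03 to 0.77. For males against females, voom gave Mmp3 0.05 and Mmp9 -0.16, batch 1 alone Mmp14 -0.17 and Postn -0.77, batch 2 alone Mmp3 0.17 and Mmp9 -0.09, untreated mice alone Mmp9 -0.2 and HK-treated mice alone Mmp3 0.38. Mmp9 ran from -0.16 to 0.2 without each mouse, and Timp1 passed by voom (1.64, adjusted p = 0.0267) and without untreated male 2 (1.45) or untreated female 3 (1.75). The limit of the Timp1 filter given above holds for these values. Postn also passed by voom (2.03, adjusted p = 0.0118). In edgeR's test, Lamc1 passed without HK male 1 (adjusted p = 0.0352) or HK male 5 (0.0408). By the same test, Mmp23 passed without untreated male 1 (0.0472), untreated female 4 (0.0421) or HK female 2 (0.0496). Serpini1 passed there without untreated male 3 (0.0374) or HK male 2 (0.0427). The cause of these shifts was not tested. Mmp3 and Timp1 did not pass the filter in batch 1 alone, nor Timp1 in females alone. The wider filter, the permutation test and the Timp1 pairs were chosen after seeing the data. Mmp3 and Mmp9 had 1 to 40 counts per mouse, and how far depth limits their precision was not tested.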
